A study of Homo sapiens with 6 samples.

Results

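The genes described here are the nuclear genes of respiratory complex I, the NADH dehydrogenase of the mitochondrial inner membrane. They were taken by name alone: every gene named NDUFA, NDUFB, NDUFC, NDUFS or NDUFV with a number, NDUFAB1, and every gene named NDUFAF with a number. The rule gave 46 of the 62754 genes in the tables, 0.0733% of them, of which 38 carry a subunit name and 8 are NDUFAF assembly factors. All 46 passed the filter on low values, a TPM (a transcript's length-corrected share of the library) of 1 or more in at least 3 libraries.

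RNA was sequenced from HUDEP-2, a human erythroid progenitor line immortalised with papillomavirus oncogenes under a doxycycline-inducible promoter. In 3 cultures a lentivirus brought 1 hairpin (shRNA) against MEN1, the gene of the chromatin-associated protein menin, and in 3 others a hairpin without a target; the titles call them biological replicates. The medium of all 6 held 3 units per ml of erythropoietin, 50 ng per ml of stem cell factor, doxycycline (1 µg per ml) and the glucocorticoid dexamethasone (1e-06 M). Every culture was also put under puromycin at 2 µg per ml from 24 h for 48 h and was collected at 72 h. Since only that hairpin was used, loss of menin and off-target activity cannot be told apart. The question is how the RNA of complex I genes differed between the groups.

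Complex I takes electrons from NADH, passes them through a flavin and a chain of iron-sulfur clusters to ubiquinone, and pumps protons across the inner membrane. Its L shape has a peripheral arm in the matrix, which holds the nuclear-encoded core subunits that carry the cofactors, and a membrane arm, whose core subunits are encoded in the mitochondrial genome. Accessory subunits, all encoded in the nucleus, surround the core, and assembly factors help to build the complex without staying in it. Erythroid cells need mitochondria for heme synthesis and clear them as they mature.

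Between 5.56 and 10.8 gigabases were aligned per library, and 13865 to 14361 genes had a TPM of 1 or more. MEN1 read 6.29, 6.44 and 6.88 TPM with its hairpin and 41.2, 39.6 and 37.1 TPM in the controls. The groups were far apart, with a log2 fold change of -2.42 and an adjusted p of 8.54e-06 (limma, on log2(TPM + 1), Benjamini-Hochberg over all genes tested). All 10 erythroid markers on the list were detected, and their summed level was 75470 to 83240 TPM with the MEN1 hairpin against 45010 to 49140 TPM in the controls. Most of that sum came from the globin genes HBB and HBA1, so it does not show how the other markers differed. Globin transcripts alone took 9.21 to 10.4% of TPM against 5.23 to 5.78%. Of 6 megakaryocyte markers 1 reached 1 TPM (ITGA2B), the list summed to 16.6 to 21.5 against 31.8 to 36.8 TPM, and PF4 and PPBP were at 0. The mast cell and basophil list summed to 422 to 505 against 577 to 750 TPM, nearly all of it TPSAB1, with 2 of 5 markers at 1 TPM and CMA1 under 0.1 TPM. Myeloid markers (2 of 6 at 1 TPM) summed to 0.525 to 1.09 against 3.45 to 5.23 TPM with CSF1R and ELANE under 0.1 TPM, and none of 5 lymphoid markers reached 1 TPM. The part of these differences in the results below was not tested.

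Of the 46 complex I genes, 4 were higher and 21 lower with the MEN1 hairpin at an adjusted p under 0.05, and 21 did not pass. That is 54.3% of them, against 53.6% of all 14294 genes tested. By direction, 8.7% of the complex I genes were higher against 22.1% of all genes, and 45.7% were lower against 31.5% of all genes. The gap in the lower share depended on the scaling, and 2 scalings narrowed it. Dividing each library by its median ratio to the others gave 30.4% lower against 26.9% of all genes. Rescaling TPM without globin and mitochondrially encoded genes gave 32.6% against 27.8%. Quantile normalization changed the subunit calls little, with 16 of the 38 lower where TPM gave 17. Of the subunit calls 15.8% were then higher, against 49.1% of the calls over all genes. FPKM gave 15 lower subunits. Libraries of the 2 groups did not overlap in 29 of the 46, where 61.8% of all genes tested did not overlap. A change of at least 2-fold was passed by 3 of them, 6.52%, against 11.9% of all genes: the subunit gene NDUFB5 and the assembly factor genes NDUFAF2 and NDUFAF4. In bulk RNA, fewer cells that carry a transcript and less of it per cell cannot be told apart.

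**Figure D1:**
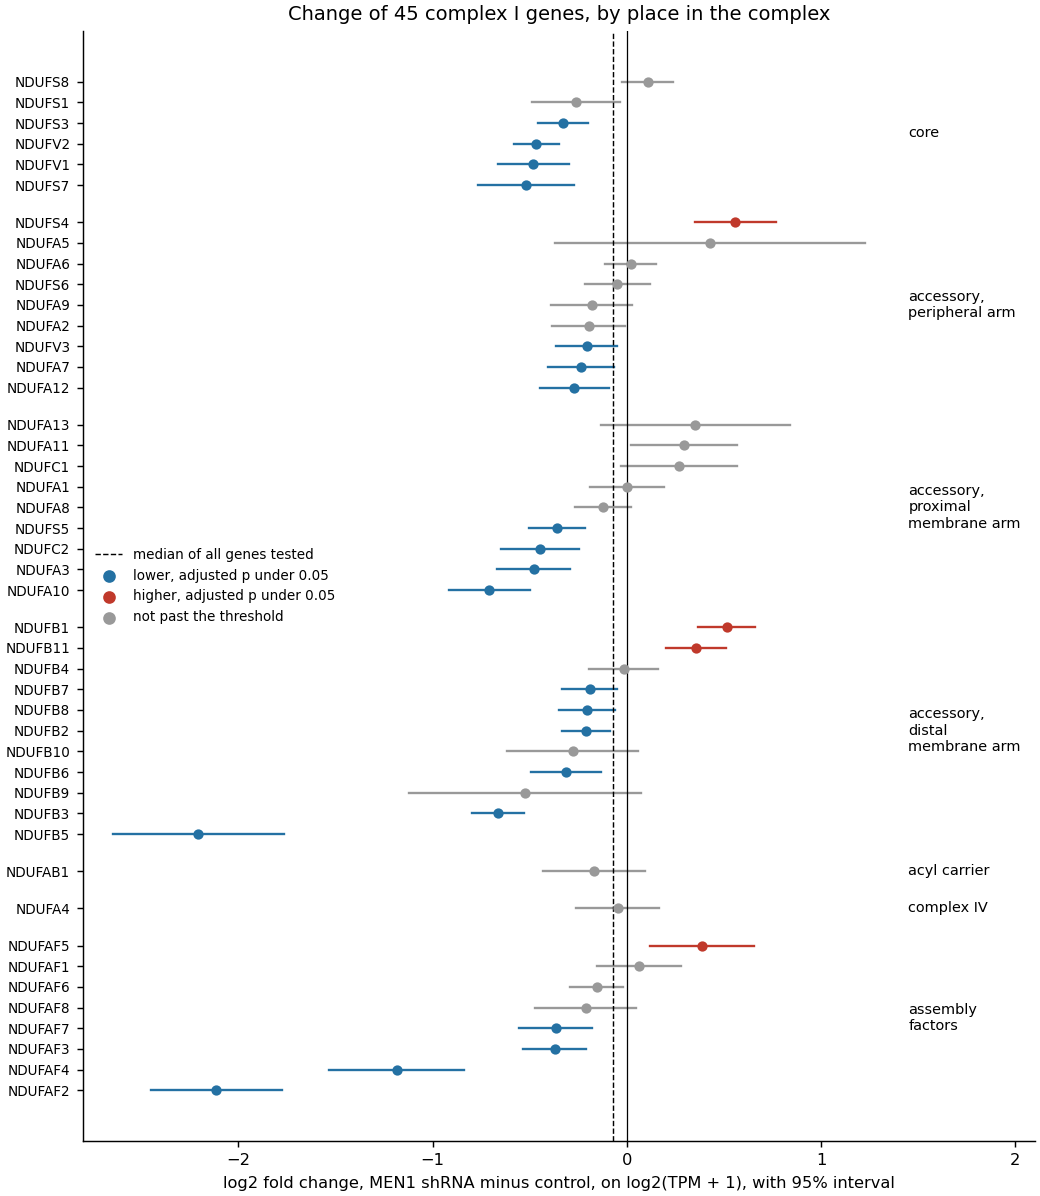
Log2 fold change (x axis, MEN1 hairpin minus control on log2(TPM + 1)) of 45 of the 46 genes with its 95% interval, grouped by place in the complex. NDUFB5 at -2.21 and NDUFAF2 at -2.11 lie far to the left of all others, and NDUFS4 at 0.56 is the largest rise past the threshold. The dashed line is the median of all genes tested, -0.07.

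Among the 38 subunit names, 3 were higher (7.89%), 17 lower (44.7%) and 18 not past the threshold. Their median log2 fold change was -0.20, with 27 below 0 and 11 above, beside -0.07 over all genes tested. Summed over the 38, the level was 5765, 6052 and 6180 TPM with the MEN1 hairpin (5999 ± 212, SD, n = 3) and 6659, 6663 and 6535 TPM in the controls (6619 ± 72.5, SD, n = 3). The MEN1 libraries were all below the controls, at 90.6% of their mean. With median-of-ratios scaling 5 subunits were higher (13.2%, against 26.3% of all genes) and 10 lower (26.3%, against 26.9% of all genes). The lower share was then no longer above that of all genes, while the higher share stayed below it. With rescaled TPM 5 were higher (13.2% against 24.9%) and 11 lower (28.9% against 27.8%). Quantile normalization left 3 higher and 16 lower, and FPKM 3 and 15. The 7 calls lost with median-of-ratios scaling were the lower ones of NDUFA7, NDUFA12, NDUFV3, NDUFB2, NDUFB6, NDUFB7 and NDUFB8, and all but that of NDUFB6 were also lost with rescaled TPM. NDUFS8 and NDUFA11 passed as higher under both. The median of the 38 was -0.11 with median-of-ratios scaling, beside 0.01 over all genes, and -0.13 with rescaled TPM, beside -0.01. It thus stayed below the median of all genes under both. The log2 difference of the summed level shrank from -0.14 to -0.0543 and -0.0754.

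**Figure D2:**
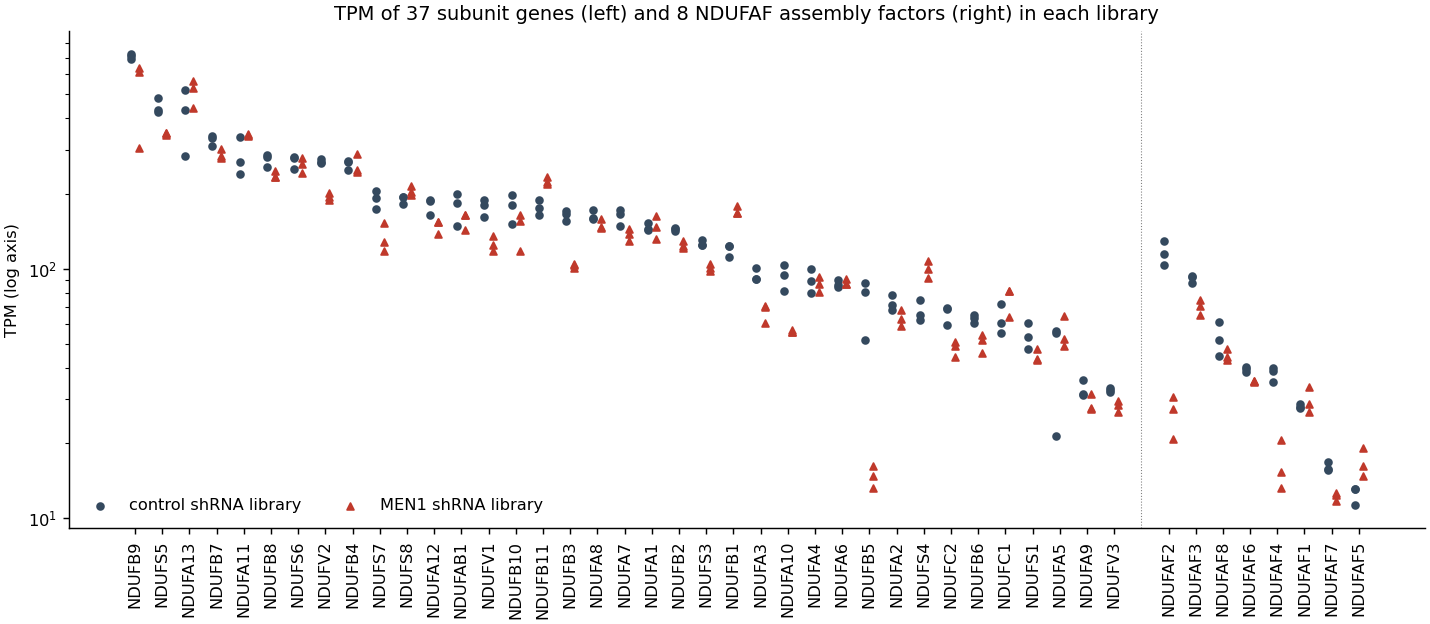
TPM on a log axis in each of the 6 libraries for 37 of the 38 subunit genes (left) and 8 NDUFAF genes (right), ordered by control mean; circles are control and triangles MEN1 hairpin libraries. Subunit control means run from 32.7 to 709 TPM and NDUFAF means from 12.5 to 116 TPM, and the triangles of NDUFB5, NDUFAF2 and NDUFAF4 lie well below their circles.

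The 7 nuclear core subunits hold the flavin and the iron-sulfur clusters. Of them 4 were lower (57.1%, against 31.5% of all genes) and none higher (against 22.1%), with a median of -0.33. Their sum came to 83.5% of the control mean. NDUFV1, the subunit that binds NADH and the flavin, read 135, 125 and 118 TPM with the MEN1 hairpin and 179, 161 and 188 TPM in the controls. NDUFV1 fell by 0.48 on the log2 scale (adjusted p 0.0015), with no overlap between groups. Its partner NDUFV2, which carries an iron-sulfur cluster, read 201, 194 and 189 against 266, 267 and 274 TPM. Its libraries lay close together within each group and apart between groups, at -0.47 (adjusted p 0.000218). NDUFS1, the largest subunit and holder of several clusters, read 42.9, 43.4 and 47.7 against 47.5, 60.6 and 53.5 TPM. Here the groups overlapped slightly, and the fold change of -0.26 missed the threshold (adjusted p 0.054); its sign turned to 0.04 when gene coverage over depth replaced TPM, and without control replicate 1 it passed (-0.34, adjusted p 0.0191).

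NDUFS7, which carries the last cluster of the chain next to the ubiquinone site, read 153, 118 and 128 TPM with the MEN1 hairpin and 205, 192 and 173 TPM in the controls. All MEN1 libraries were below all controls, a log2 fold change of -0.52 with an adjusted p of 0.00435, the largest among the core genes. NDUFS3, a scaffold of the peripheral arm, read 100.2, 104 and 97.7 against 124, 130.4 and 125 TPM and fell by 0.33 (adjusted p 0.0016). NDUFS8, another cluster carrier, read 214, 203 and 198 against 193, 182 and 194 TPM. Those groups did not overlap, yet the difference of 0.11 was small and missed the threshold (adjusted p 0.144). NDUFS8 passed as higher with median-of-ratios scaling (0.20, adjusted p 0.0349) and with rescaled TPM (0.18, adjusted p 0.0362).

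In the accessory subunits of the peripheral arm, 1 of 9 was higher (11.1%, against 22.1% of all genes) and 3 lower (33.3%, against 31.5%). Their median was -0.18 and their sum was at 96% of control. The one that rose was NDUFS4, a subunit that stabilises the NADH-binding end and a frequent site of mutations in Leigh syndrome. It read 91.6, 107 and 99.7 TPM with the MEN1 hairpin and 65.04, 62.1 and 74.7 TPM in the controls. No library overlapped, and NDUFS4 was 1.48-fold higher in TPM (fitted log2 change 0.56, SE 0.09, adjusted p 0.00141), the largest rise of the family past the threshold. NDUFA12, NDUFA7 and NDUFV3 were lower by small amounts, at -0.27, -0.24 and -0.21, and none of these 3 passed with median-of-ratios scaling or rescaled TPM. The other 5 did not pass: NDUFA2 (-0.20), NDUFA9 (-0.18), NDUFS6 (-0.05), NDUFA6 (0.02) and NDUFA5. For NDUFA5 a single library set the estimate: control replicate 1 read 21.4 TPM against 56.1 and 55.2 TPM in the other controls and 49.2 to 64.6 TPM in the MEN1 libraries. The fold change of 0.43 became -0.02 without it.

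Accessory subunits of the proximal membrane arm, the part next to the joint of the L, counted none higher and 4 of 9 lower (44.4%). Over all genes, 22.1% were higher and 31.5% lower. These subunits had a median of -0.12 and a sum at 98.9% of control. NDUFA10, a subunit related to nucleoside kinases, read 57.1, 56.0 and 55.9 TPM with the MEN1 hairpin and 103, 94.3 and 81.4 TPM in the controls. The MEN1 libraries lay close together and below all controls, a log2 fold change of -0.71 (SE 0.0888, adjusted p 0.000429); gene coverage over depth gave -0.41, which also passed. NDUFA3, a small subunit with a membrane helix, read 71.2, 70.4 and 60.7 against 91.2, 100.5 and 91.2 TPM, a log2 fold change of -0.48 (adjusted p 0.00172). NDUFC2 and NDUFS5 were lower at -0.45 and -0.36, though NDUFC2 missed the threshold by gene coverage over depth (adjusted p 0.0687). The gene NDUFC2-KCTD14, named after its values were seen, overlaps NDUFC2 on the same strand. Its mean was 4.25 TPM (SD 7.36) with the MEN1 hairpin and 0 in the controls. With its TPM added the change of NDUFC2 went to -0.33. Among the 5 that did not pass, NDUFA13, also known as GRIM-19, read 283 TPM in control replicate 1 against 518 and 431 TPM in the other controls and 441 to 565 TPM in the MEN1 libraries, and its fold change of 0.35 had a 95% interval of -0.13 to 0.84. NDUFA11 (0.29, adjusted p 0.0669) did not overlap between groups and passed without control replicate 1 (0.43, adjusted p 0.00313), with median-of-ratios scaling (0.38, adjusted p 0.0371) and with rescaled TPM (0.36, adjusted p 0.0322). NDUFC1 stood at 0.27, NDUFA8 at -0.12 and NDUFA1 at 0.00.

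The distal membrane arm, which holds the NDUFB subunits, had 2 of 11 genes higher (18.2%) and 6 lower (54.5%), with a median of -0.21. The shares over all genes were 22.1% and 31.5%. Both rises held with median-of-ratios scaling, where 2 of the falls did, and with rescaled TPM, where 3 did. NDUFB5, a single-span membrane subunit at chr3:179604690-179627647 (hg38, + strand), read 13.3, 16.3 and 14.8 TPM with the MEN1 hairpin and 51.7, 80.9 and 87.5 TPM in the controls. Every MEN1 library lay far below the lowest control. The MEN1 mean was 20.1% of the control mean, 4.97-fold lower in TPM. The fitted change on log2(TPM + 1), a scale that understates the change of low genes, was -2.21 with an SE of 0.189 (adjusted p 8.62e-05), the largest in the family. Leaving out any library gave -2.44 to -2.06, and gene coverage over depth gave -2.0. The other 16 subunits that were lower kept 60.6 to 87.5% of their control level, so NDUFB5 stood well outside their range. Per base of the gene, NDUFB5 was covered by 5.59 to 13.4 reads with the MEN1 hairpin and by 36.3 to 56.5 in the controls. These read depths are not scaled for the size of the library.

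NDUFB3, a small subunit of the same arm, read 103, 105 and 100.8 TPM with the MEN1 hairpin and 155, 166 and 170.5 TPM in the controls, a log2 fold change of -0.66 with an adjusted p of 9.27e-05. The 5 largest falls among subunits were those of NDUFB5, NDUFA10, NDUFB3, NDUFS7 and NDUFV1, and the other 12 fell by 0.48 to 0.19. Of the distal arm, NDUFB6 (-0.31), NDUFB2 (-0.21), NDUFB8 (-0.20) and NDUFB7 (-0.19) belong to those 12. With median-of-ratios scaling these 4 missed the threshold, at adjusted p 0.0555, 0.118, 0.15 and 0.239. In the opposite direction, NDUFB1 read 167, 168 and 178 against 123, 123 and 111 TPM, a rise of 0.52 (adjusted p 0.00037). NDUFB11, an X-linked subunit whose mutations cause sideroblastic anemia, read 219, 234 and 222 against 163, 175.2 and 188 TPM, a rise of 0.36 (adjusted p 0.00271). Both were separated in every library. Members of 1 arm thus moved in both directions, from NDUFB5 at -2.21 to NDUFB1 at 0.52.

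**Figure D3:**
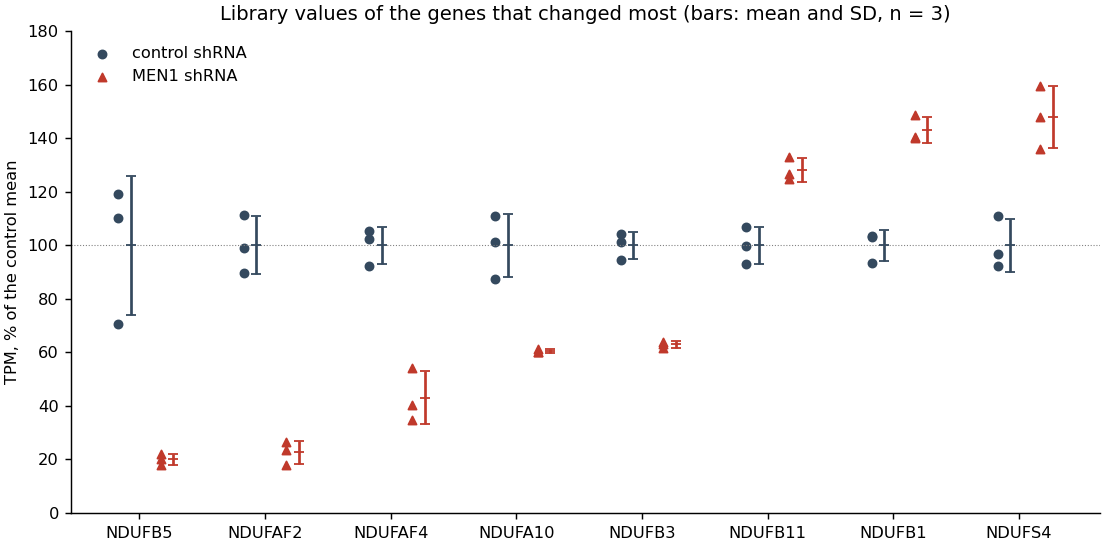
TPM of each library as a percentage of the control mean (y axis, from 0) for the 5 genes with the largest falls and the 3 subunit genes that rose; bars show the mean and SD of 3 libraries. NDUFB5 and NDUFAF2 lie at 20.1% and 22.7% of control, NDUFA10 and NDUFB3 near 60%, and NDUFS4 at 148%.

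NDUFB9 had the highest control level of the family (709 TPM), and its change rested largely on 1 library. With the MEN1 hairpin it read 305 TPM in replicate 1 but 638 and 614 TPM in replicates 2 and 3, against 725, 708 and 694 TPM in the controls. All MEN1 libraries were below all controls, but the spread left the fold change of -0.52 unpassed (adjusted p 0.123). Without MEN1 replicate 1 it was -0.18 and passed (adjusted p 0.0257). Without NDUFB9 the subunit sum was 5460, 5414 and 5566 against 5933, 5955 and 5841 TPM, 92.7% of control. NDUFB10 (-0.28) and NDUFB4 (-0.01) did not pass.

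A pair of genes carry subunit names but were not grouped with the arms described so far. NDUFAB1, the mitochondrial acyl carrier protein of fatty acid synthesis, which also sits in complex I, read 142, 164 and 164 against 199, 183 and 149 TPM. NDUFA4, now assigned to complex IV, read 92.4, 80.3 and 86.9 against 99.4, 89.4 and 80.2 TPM. Groups overlapped in both, with fold changes of -0.17 and -0.05 that missed the threshold; without control replicate 3 NDUFAB1 passed (-0.29, adjusted p 0.0338). Of the 18 subunit names that did not pass, 12 had a 95% interval inside 0.5 either way on the log2 scale. For the other 6 (NDUFA5, NDUFA11, NDUFA13, NDUFC1, NDUFB9 and NDUFB10) the libraries could not exclude a larger change.

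Some calls did not hold when 1 library was left out. NDUFV3 missed the threshold in each of 5 fits with 1 library left out (adjusted p up to 0.109), passing only without MEN1 replicate 1. NDUFA7 missed it without MEN1 replicate 2 or 3 or control replicate 2 or 3 (up to 0.0888), and NDUFB8 without MEN1 replicate 1 or 2 or control replicate 1 or 2 (up to 0.0842). NDUFB7 missed it without MEN1 replicate 1 or 2 or control replicate 1 or 3 (up to 0.0965), and NDUFA12 without control replicate 1 (0.0624) or 3 (0.0617). NDUFC1 passed without MEN1 replicate 1 (0.38, adjusted p 0.03) or control replicate 1 (0.37, adjusted p 0.043), and NDUFA2 without MEN1 replicate 1 (-0.25, adjusted p 0.035). Over the 38 subunits the change had a Spearman correlation of -0.08 with control level and of 0.14 with transcript length; all points come from the same 6 libraries.

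Assembly factors held the other large falls. Of the 8 NDUFAF genes 1 was higher (12.5%, against 22.1% of all genes), 4 lower (50%, against 31.5%) and 3 not past the threshold. Their median was -0.29. Summed, they reached 262, 247 and 247 TPM with the MEN1 hairpin (252 ± 9.07, SD, n = 3) and 397, 405 and 380 TPM in the controls (394 ± 12.7, SD, n = 3), 64% of control. NDUFAF2 made up most of that gap: without it the sum was 232, 226 and 219 against 282, 276 and 276 TPM, 81.2% of control. Their level was lower than that of subunits, with a median control mean of 38.8 TPM against 154 TPM.

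NDUFAF2, a relative of subunit NDUFA12 that holds the NADH-binding end during late assembly and is then replaced by NDUFA12, lies at chr5:60945177-61154531 (hg38, + strand). It read 30.8, 20.7 and 27.3 TPM with the MEN1 hairpin and 115, 129 and 104 TPM in the controls. No MEN1 library came near a control, and NDUFAF2 was 4.41-fold lower in TPM (fitted log2 change -2.11, SE 0.145, adjusted p 4.12e-05). Every alternative gave between -2.23 and -1.93. In the controls it was the most abundant NDUFAF transcript, and its mean of 26.3 TPM with the MEN1 hairpin was below that of NDUFAF1 (29.6 TPM). NDUFA12, its successor in the complex, fell far less (-0.27). Coverage of NDUFAF2, not scaled for the size of the library, was low per base, 1.61 to 2.63 reads against 7.28 to 12.8.

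NDUFAF3 and NDUFAF4 bind each other and act on the early module that joins the peripheral arm to the membrane. NDUFAF4 read 20.5, 13.2 and 15.4 TPM with the MEN1 hairpin and 35.1, 38.9 and 40.0 TPM in the controls. Its mean was 43.1% of control, a log2 fold change of -1.19 (SE 0.148, adjusted p 0.000421) with no overlap. NDUFAF3 read 75.2, 71.0 and 65.05 against 92.5, 87.6 and 93.5 TPM, a log2 fold change of -0.37 (adjusted p 0.00305). Both partners were lower, by unequal amounts.

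Some of the other NDUFAF proteins are enzymes or their partners. NDUFAF5, which hydroxylates an arginine of NDUFS7, read 19.1, 16.2 and 14.8 TPM with the MEN1 hairpin and 11.3, 13.1 and 13.1 TPM in the controls. It was the only NDUFAF gene to rise (log2 0.39, adjusted p 0.0227), with no overlap, but the call was lost without the filter on low values (adjusted p 0.0648) and without MEN1 replicate 1 (0.0528), MEN1 replicate 2 (0.0516) or control replicate 1 (0.073). NDUFAF8, which stabilises NDUFAF5, read 42.9, 44.1 and 47.6 against 60.9, 51.9 and 44.7 TPM; the groups overlapped at -0.21 (adjusted p 0.15), which passed without control replicate 3 (-0.32, adjusted p 0.0326). NDUFAF7, a methyltransferase, read 11.7, 12.4 and 12.7 against 15.6, 16.9 and 15.8 TPM, a log2 fold change of -0.37 (adjusted p 0.00602). NDUFAF1, a part of the complex that builds the membrane arm, read 26.6, 33.6 and 28.6 against 28.0, 27.8 and 28.8 TPM and did not pass (0.06). NDUFAF6 read 35.6, 35.6 and 35.2 against 38.6, 39.8 and 40.3 TPM; the groups did not overlap, and the small difference of -0.16 missed the threshold (adjusted p 0.0572).

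Further assembly genes without an NDUF name were listed from textbook knowledge. Of these 16, 2 were higher (12.5%, against 22.1% of all genes) and 11 lower (68.8%, against 31.5%), with a median of -0.52. SFXN4, an assembly factor whose loss causes mitochondriopathy with macrocytic anemia, read 21.2, 16.8 and 17.6 TPM with the MEN1 hairpin and 49.2, 47.7 and 54.0 TPM in the controls. That gap was wide in every library, -1.40 on the log2 scale (adjusted p 4.81e-05). DMAC1, of the distal membrane arm, was at -0.96 (adjusted p 7.54e-05), and TMEM126B, of the membrane assembly complex, at -0.88 (adjusted p 0.000148). The membrane assembly complex also holds NDUFAF1, ACAD9, ECSIT, COA1, TIMMDC1 and TMEM186, named here after their values were seen. Of these, COA1 fell by 1.29 and ECSIT by 0.66, ACAD9 rose by 0.19 (adjusted p 0.0428), and TIMMDC1 (-0.13) and TMEM186 (-0.07) did not pass.

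Among listed regulators of respiratory genes, 1 of the 12 tested was higher (8.33%, against 22.1% of all genes) and 8 were lower (66.7%, against 31.5%). The list had a median of -0.37. It holds 4 genes that act on the mitochondrial genome or its RNA (TFAM, TFB1M, TFB2M and POLRMT), and all 4 were lower. Of the 8 others, which act on nuclear genes, 1 was higher, 4 lower and 3 not past the threshold, with a median of -0.15. This division of the list was made after its values were seen. PPARGC1B, a coactivator of respiratory genes, read 1.83, 1.48 and 1.38 TPM with the MEN1 hairpin and 4.51, 5.20 and 5.29 TPM in the controls, at -1.23 (adjusted p 0.000227). POLRMT, the mitochondrial RNA polymerase, was at -0.74 (adjusted p 0.000233), and TFB2M, its initiation factor, at -0.89 (adjusted p 0.000363). PPARGC1A was not tested, at no more than 0.0186 TPM. Of the factors that bind the promoter motifs described next, NRF1 (0.07), GABPA (0.15) and YY1 (-0.11) did not pass. The genes of the partner subunits of GABPA did pass, GABPB1 as lower (-0.41, adjusted p 0.00683) and GABPB2 as higher (0.70, adjusted p 0.00239). These factors and PPARGC1A fall outside the rule for named genes and were chosen after their values were seen.

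Promoter sequences were searched because many respiratory genes share binding motifs near their start. RefSeq promoters (GRCh38.p14, 250 bases before to 50 after the start) were found for 39 of the 46 genes and compared with all 27305 in the table, on both strands. The NRF1 letters GCGCATGC stood in 7 of 39 (17.9%) against 3.27% of all promoters. YY1 letters AAGATGGC stood in 6 (15.4%) against 3.03%, and the ETS letters CCGGAAG, read by GABP, in 6 (15.4%) against 10.7%. At least 1 of the 3 was in 16 of 39 (41%) against 15.6%. Matches of different motifs did not overlap each other, while the NRF1 letters matched on both strands, overlapping, in NDUFA8, NDUFAF5 and NDUFB4. All 6 YY1 matches read on the gene's own strand and began 11 to 26 bases after the start. The YY1 letters contain ATG, the letters of a start codon. Whether these matches lie on the start of translation was not tested, nor was binding of YY1. Genes with a YY1 match included 3 that were lower (NDUFA3, NDUFA7, NDUFS7), 1 that was higher (NDUFS4) and 2 that did not pass (NDUFA6, NDUFA9), so the same letters stood in genes that moved in opposite directions. The NRF1 letters likewise stood in 2 lower genes, 1 higher gene and 4 that did not pass. The ETS letters stood in 3 of 18 lower genes, in none of the 4 higher ones and in 3 that did not pass. The windows below show this, with the matched letters in capitals: the YY1 letters in 3 lower genes and the higher one, then the NRF1 letters in lower NDUFS7 and NDUFAF4 and in higher NDUFAF5.
NDUFS7, lower, chr19:1383913-1383942, + strand: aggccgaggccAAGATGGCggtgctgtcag
NDUFA3, lower, chr19:54102865-54102894, + strand: ccgcggagacaAAGATGGCtgcgagtaagt
NDUFA7, lower, chr19:8321343-8321372, - strand: atcgcggacggAAGATGGCgtccgccaccc
NDUFS4, higher, chr5:53560649-53560678, + strand: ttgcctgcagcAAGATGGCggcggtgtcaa
NDUFS7, lower, chr19:1383823-1383852, + strand: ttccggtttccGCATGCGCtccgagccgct
NDUFAF4, lower, chr6:96897867-96897896, - strand: ccctcacttgtGCGCATGCtccgggtgtcc
NDUFAF5, higher, chr20:13785013-13785042, + strand: aagccgcgctgGCGCATGCgcacaaaaagc

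The NRF1 letters of NDUFS7 are shown as their reverse complement, GCATGCGC. The promoter of NDUFAF2, the assembly factor with the largest fall, held none of the 3 motifs within 300 bases. Its last 90 bases before the RefSeq start, on the side that faces its neighbour ERCC8, are shown since both genes were lower.
NDUFAF2, lower, chr5:60945115-60945204, + strand: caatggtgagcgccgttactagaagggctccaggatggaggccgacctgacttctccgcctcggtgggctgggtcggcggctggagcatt

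Several complex I genes start back to back with another gene. With starts at most 1000 bases apart, or overlapping by at most 500, 20 of the 46 had such a neighbour that was tested, 21 neighbours in all; the genes named in this paragraph were chosen after their values were seen. Of the 21 neighbours 2 were higher and 11 lower, where 22.1% of all genes tested were higher and 31.5% lower. In 6 pairs both genes passed in the same direction and in 3 in opposite directions. Among these pairs, NDUFA7 with RPS28 and NDUFB11 with RBM10 (same direction) and NDUFAF3 with MIR191 (opposite) overlap in position. Reads of those pairs may be shared. MRPL47, a mitochondrial ribosomal protein gene that starts 41 bases from NDUFB5, read 55.5, 66.4 and 60.3 TPM with the MEN1 hairpin and 91.6, 90.8 and 94.4 TPM in the controls, a log2 fold change of -0.60 (adjusted p 0.000427). That was less than the fall of NDUFB5. ERCC8, a DNA repair gene 104 bases from NDUFAF2, read 5.70, 4.83 and 3.69 against 10.1, 8.76 and 8.15 TPM, a log2 fold change of -0.81 (adjusted p 0.00311). CEBPZ, 35 bases from NDUFAF7, fell by 0.50. On the other side, CPSF2 starts 52 bases from NDUFB1 and ESF1 88 bases from NDUFAF5, and these neighbours fell by 0.23 and 0.41 where the complex I gene rose. The third opposite pair is NDUFAF3 and the microRNA gene MIR191, which was higher (1.12) from 0.568 TPM in the controls. MIR191 lies inside the gene DALRD3, on the same strand, so its listed start may not be a start of transcription. DALRD3 itself was lower (-0.64, adjusted p 0.000302), in the direction of NDUFAF3. RBM10, next to NDUFB11, was the other neighbour that was higher (0.20).

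**Figure D4:**
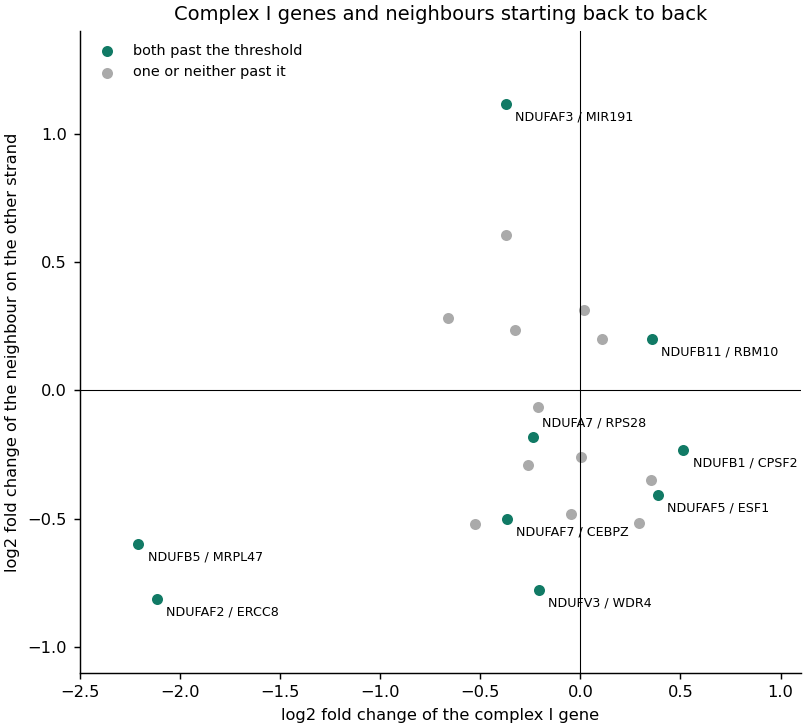
Log2 fold change of each complex I gene (x axis) and of its back-to-back neighbour (y axis), 21 pairs; green points mark the 9 pairs in which both passed the threshold. NDUFB5 with MRPL47 and NDUFAF2 with ERCC8 lie at the lower left, while NDUFB1 with CPSF2 and NDUFAF5 with ESF1 lie at the lower right, where the complex I gene rose and its neighbour fell.

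Some genes share their position with another gene, and the use of strand in the quantification is not stated in the sources read here, so their reads may be shared. In 12 of the 46 an overlapping gene had at least 10% of the TPM of the complex I gene. The partners on the opposite strand were TMCO6 and IK for NDUFA2, TFPT for NDUFA3, RPS28 for NDUFA7, RTF1 for NDUFAF1, DALRD3 for NDUFAF3, CCNE2 and TP53INP1 for NDUFAF6, RBM10 for NDUFB11, BRAF for NDUFB2, SMIM27 for NDUFB6, MTSS1 for NDUFB9, NAA15 for NDUFC1, and CELF1 and KBTBD4 for NDUFS3. On the same strand PLEKHF2 overlaps NDUFAF6 and PTPMT1 overlaps NDUFS3. Of those 12, 7 had passed the threshold, and their values are uncertain to that extent. Of their 9 partners, RPS28, DALRD3, RBM10 and PTPMT1 passed in the direction of the complex I gene, TFPT, BRAF and KBTBD4 in the opposite one, and SMIM27 and CELF1 did not pass. RPS28 had 524% of the TPM of NDUFA7 and fell by 0.18 itself. TFPT rose by 0.18, and with its TPM added the change of NDUFA3 went from -0.48 to -0.23. NDUFB5 and NDUFAF2 had no such partner, their overlapping genes reaching at most 1.2% of their level. The tables also list 63 pseudogenes of the family, of which 6 reached 1 TPM in a library and none held 10% of its parent's level.

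The membrane-arm core is encoded by the mitochondrial genes MT-ND1 to MT-ND6 and MT-ND4L. Apart from MT-ND6, these were listed at 0 or below 0.01 TPM in all 6 libraries, so nothing can be read from them. MT-ND6, the only one of the 7 tested, read 2.35 TPM in MEN1 replicate 1, 282 and 293 TPM in the other MEN1 libraries and 233, 266 and 235 TPM in the controls. That single library set its fold change of -1.91, which did not pass (adjusted p 0.34). Genes of the mitochondrial genome together took 1.87 to 2.09% of TPM against 2.19 to 2.24%. The genes listed at 0 or below 0.01 TPM add almost nothing to that total, so it is not a full measure of mitochondrial transcripts.

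Set beside other mitochondrial gene groups, the subunits had a median close to that of the nuclear genes of complexes II to V, of which 2 of 44 tested were higher and 21 lower, with a median of -0.21. With median-of-ratios scaling 17 of those 44 were lower (38.6%, against 26.3% of the subunits and 26.9% of all genes), with a median of -0.12. Mitochondrial ribosomal protein genes counted 5 higher (6.67%) and 44 lower (58.7%) of 75, with a median of -0.38. Over all genes tested, 22.1% were higher and 31.5% lower on TPM. With median-of-ratios scaling the lower share was 52% for the ribosomal genes. It was then 46.2% for the citrate cycle and 75% for the outer membrane and import genes, whose values on TPM follow. In the citrate cycle 3 of 13 were higher (23.1%) and 8 lower (61.5%), with a median of -0.40. IDH3B, of the NAD-linked isocitrate dehydrogenase, was at -0.81 (adjusted p 7.45e-05) and CS, citrate synthase, at -0.43 (adjusted p 0.000512). Of 12 genes of the outer membrane and protein import, 1 was higher (8.33%) and 10 lower (83.3%), with a median of -0.34. TOMM40, the import pore, was at -1.06 (adjusted p 3.51e-05), TOMM22, its receptor, at -0.76 (adjusted p 0.000149), and TIMM44, of the import motor, at -0.37 (adjusted p 0.000836). These counts are a description, and no difference between the groups of genes was tested.

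**Figure D5:**
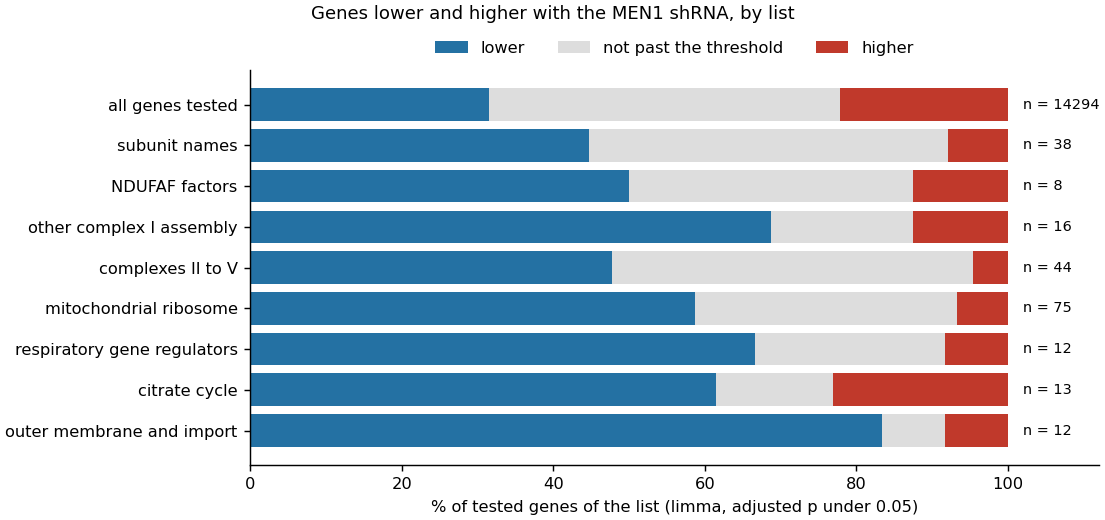
Share of the tested genes of each list (x axis, %) that were lower (blue), not past the threshold (grey) or higher (red) with the MEN1 hairpin, with the number of genes tested beside each bar. Subunit names show 44.7% lower and 7.89% higher, against 31.5% and 22.1% of all genes tested, all on TPM. With median-of-ratios scaling the lower shares were 26.3% and 26.9%. Quantile normalization left 16 subunits lower, where TPM gave 17.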

How the data were processed

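Poly(A) RNA of 3 MEN1 shRNA and 3 control shRNA cultures of HUDEP-2 was sequenced after a directional library preparation, per the labels' protocols. The submitters' processing notes name FastQC, Trimmomatic, STAR 2.7.1a, Picard 2.20.4, StringTie 2.0.4 and the build hg38; the annotation is not given in the sources used here. Each library has 1 table of 62754 genes. The deposited TPM values, the main measure, sum to the same total in each library, per the file headers and values. The deposited FPKM, by its header, is the authors' value per kilobase and library size, and the deposited coverage signal is the mean read depth per base, not scaled for depth. In control replicate 2, 2 residues below 0 were set to 0. Aligned bases were taken from the ratio of coverage to FPKM in single-transcript genes. Because TPM is a share, the rise of globin lowers the other genes, and the division of reads among isoforms and overlapping genes also enters TPM.

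The model was limma 3.58.1 under R 4.3.3 (lmFit, then eBayes with a trend) on log2(TPM + 1), with the group as its only term, over the 14294 genes that reached 1 TPM in 3 libraries or more. The tests are 2-sided, and p-values were adjusted by Benjamini-Hochberg over all of these genes, with a threshold of 0.05. Fold changes on this scale understate the change of low genes. The method was tested on simulated data. Python 3.11.15 gave sums, overlaps and motif searches. Named genes are the 7 core subunits, the 5 largest rises and falls among subunits past the threshold (3 rose), all NDUFAF genes, at most 3 genes of each other list with the lowest adjusted p, and overlapping genes with 10% or more of a member's TPM. Of the genes this rule names, 2 are not reported here one by one. The members and lists were chosen with earlier results of these data known. Alternatives covered the pseudocount, filter, unit, scaling, weights, replicate block, transcript length and GC content, and leaving out each library.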

Additional observations from a re-analysis of the deposited data

How the results depend on the processing

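Of 900 refits of a complex I gene, 790 kept direction and side of the threshold, 60 lost the call, 24 gained one and 26 changed sign, none of them in a gene past the threshold. Of the 25 genes past it, 16 passed under every alternative. The alternatives by gene coverage and by transcript length and GC content were chosen after seeing the data.

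Subunits that were higher went from 3 to 5 with median-of-ratios scaling, with array weights, and with TPM rescaled after removing globin and mitochondrially encoded genes. Subunits that were lower went from 17 to 10 with median-of-ratios scaling, and to 11 with rescaled TPM or with the replicate block together with the length and GC trend. The share of subunit calls that were higher moved from 15% to 33.3% and 31.2% under those 2 scalings, and from 41.2% to 49.5%, 47.3% and (quantile normalization) 49.1% over all genes. The NDUFAF count of higher genes was 0 without the filter and with the replicate block. The subunit median was -0.16 by FPKM, -0.11 by median-of-ratios scaling, -0.13 by rescaled TPM and -0.15 with the length and GC trend removed, with or without the block. The log2 difference of the subunit sum was -0.14, then -0.0543 by median-of-ratios scaling and -0.0754 by rescaled TPM.

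Signs turned only in genes that had not passed the threshold. NDUFB4 (-0.01) went to 0.0174 by FPKM, 0.0732 by median-of-ratios scaling, 0.0521 by rescaled TPM, 0.0170 with the length and GC trend removed, with or without the block, and 0.0171 by gene coverage. NDUFS6 went to 0.0401 by median-of-ratios scaling and 0.0191 by rescaled TPM, and NDUFA4 to 0.0397, 0.0188 and (quantile normalization) 0.0289. NDUFA1 was -0.0293 by quantile normalization, and gene coverage gave 0.0392 for NDUFS1 and -0.0406 for NDUFC1. The cause was not tested.

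Leaving out 1 library gave 6577 to 7542 genes past the threshold, 16 to 21 subunits (3 to 5 higher, with 5 without control replicate 1, and 13 to 17 lower) and 4 to 6 NDUFAF genes (0 to 1 higher, with 0 without MEN1 replicate 1, MEN1 replicate 2 or control replicate 1), a subunit median of -0.22 to -0.17 and a sum difference of -0.16 to -0.11. Under these fits NDUFB4 ranged from -0.0888 to 0.0311, NDUFA6 from -0.0026 to 0.0467, NDUFS6 from -0.0999 to 0.0024, NDUFA4 from -0.124 to 0.0288, NDUFA1 from -0.0705 to 0.0798, NDUFAF1 from -0.0294 to 0.133 and NDUFA5 from -0.0186 to 0.658. Same-numbered libraries did not deviate together (correlations 0.017, -0.027 and -0.012), so the numbers do not pair them. With the replicate block 7012 genes, 16 subunits (13 lower, 3 higher) and 4 NDUFAF genes passed. No read counts were used, and coverage of a complex I gene ran from 1.61 to 2062 reads per base.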
